A study of Homo sapiens with 2 samples.

Results

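The clustered replication-dependent histone genes were followed in HepG2 cells with and without 9-cis-retinoic acid (9-cis-RA). The members were the protein-coding genes whose current symbol names a clustered linker histone (H1-1 to H1-6) or a numbered H2A, H2B, H3 or H4 gene of the histone clusters (H2AC, H2BC, H3C, H4C, formerly HIST1 to HIST4). The rule found 69 of the 60623 entries of the count table, namely 6 H1, 17 H2A, 18 H2B, 13 H3 and 15 H4 genes. Of the 69, 55 lay in the HIST1 cluster on chromosome 6, 11 in HIST2 and 2 in HIST3 on chromosome 1, and 1, H4C16, on chromosome 12. The rule uses names only, not measured values.

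The study asked what activating the RXR receptor does in hepatocytes loaded with fat. From its RNA sequencing part, 2 libraries were available here, 1 per group. Both came from wild-type HepG2 cells, an established human hepatocellular carcinoma line, recorded as one batch. The FFA group received 1 mM free fatty acids, oleic and palmitic acid at 2:1 bound to albumin, for 24 h, and the FFA + 9-cis-RA group received the same load with 10 μM 9-cis-RA, a ligand of RXR that also activates RAR. The libraries were made from RNA captured through its poly(A) tail, and no library without fatty acids was part of this comparison.

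Core histones H2A, H2B, H3 and H4 form the protein spool of the nucleosome, and H1 binds the DNA that links one nucleosome to the next. The clustered genes supply the histones that new DNA needs, so their mRNAs accumulate in S phase. Their transcripts are unusual in that most end in a short stem-loop, bound by SLBP and cut with the help of the U7 snRNP, in place of a poly(A) tail. Many of these genes can also use a poly(A) signal further downstream, which gives a longer, polyadenylated mRNA, and capture by the poly(A) tail favours that form. The counts below are therefore not the total histone mRNA of the cells.

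The 3′ ends that define these mRNAs are shown first, because the counted gene models differ in whether they hold them. A stem-loop with a perfectly paired stem of 6 bases and a loop of 4 bases was found in the GENCODE v29 transcripts of 30 of the 69 members, and in 7 of the 19590 other protein-coding genes. It took 5 forms, given 5′ to 3′ with the stem in capitals and the loop in lower case. The first occurs in 17 members of the H2A, H2B and H3 families, H2AC6, H2BC21 and H3C10 among them. The second is an H4 form, found in H4C2, H4C5, H4C8, H4C11 and H4C16. The third occurs in H2BC4, H2BC5, H2BC7 and H3C8, the fourth in H4C9, H4C14 and H4C15, and the fifth in H3C6.
form 1: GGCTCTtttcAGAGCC
form 2: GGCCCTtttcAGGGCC
form 3: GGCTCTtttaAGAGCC
form 4: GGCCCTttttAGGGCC
form 5: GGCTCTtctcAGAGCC

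The last 30 bases of transcripts of 4 well-counted members follow, to show the other kind of 3′ end. The poly(A) signal, AATAAA, is in capitals.
H2AC6: agcctggcatgaggtAATAAAaggtaatgc
H2BC21: gttattAATAAAgttaccaattaatttaaa
H3C10: atgactaAATAAAatctgtataatccccac
H4C8: aggtgAATAAAatcaggtcactcttctgct

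A signal of this kind (AATAAA or ATTAAA in the last 40 bases) was found in transcripts of 22 members, against 80.8% of all protein-coding genes. The gene models of the table fell into 2 kinds with a gap between them. In 43 members, called compact here, the counted exons reached at most 171 bases beyond the coding part, and in 29 of these they held the coding part alone. In 26 members, called extended here, they reached at least 364 bases beyond it. A stem-loop stood in 23 of the 26 extended members and a poly(A) signal in 19, with both in 17. Among the compact members, 7 had a stem-loop and 3 a poly(A) signal, and the 29 models without bases beyond the coding part cannot show either. Nor can the compact H2AC21, H3C2 and H3C3 and the extended H3C12, because their GENCODE v29 transcripts searched hold the coding part alone. This split at 300 bases was made after the values had been seen.

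The libraries held 60821539 (FFA) and 57669670 (FFA + 9-cis-RA) counted fragments. As a check of the labels, retinoid targets were higher with 9-cis-RA. The gene CYP26A1, whose enzyme degrades retinoic acid, had 4 and 709 counts, RARB had 6 and 46, and DHRS3 had 1126 and 1999. All 8 hepatocyte markers examined were counted, ALB with 186609 and 112866. The 8 markers of other cells summed to 699 and 292 counts. PTPRC had no count, CD3E had 1 in each library and COL1A1 had 1 and 2, while the endothelial gene LYVE1 had 609 and 223. Fold changes below are FFA + 9-cis-RA against FFA on the log2 scale, from normalized counts plus a pseudocount of 1, for the 20431 genes that reached 10 counts when both libraries were summed. With 1 library per group no test is possible. Each interval is an exact 95% interval (Clopper-Pearson) that covers counting error only, so it says nothing of how replicate cultures would vary.

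Histone counts were slightly lower with 9-cis-RA. All members together had 4045 counts in FFA and 3592 in FFA + 9-cis-RA, which after normalization is 90.5% of the FFA level (log2 ratio -0.14, interval -0.21 to -0.079). Of the 69 members, 18 had no count, 7 had fewer than 10, and 44 were compared. Among the 44, 33 were lower and 11 higher, with a median of -0.19 beside -0.020 for all compared genes. In 8 members the log2 fold change was below -1 and in 2 it was above 1, where 4.9% and 3.37% of all compared genes passed these limits. The counting interval lay below 0 in 10 members and above 0 in 2, where the shares of all compared genes were 25.7% and 22.5%. It held 0 in the other 32. Fewer counts make an interval wider, so these shares of all compared genes, here and below, are not matched for counts.

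The members with large differences were all members with few counts. None of the 16 members that reached 100 counts in sum passed 1 in either direction, and their median was -0.045. Such differences were rare among all genes too: with a minimum of 50 counts, 153 of 15917 were above 1 and 361 below -1. The 28 members with 10 to 99 counts had a median of -0.53, with 8 of them (28.6%) below -1. Of the 5992 other genes with as many counts 12.3% were below -1, and of the 1593 protein-coding genes among these 15.4%. The counting interval lay below 0 in 8 of the 28 members (28.6%) and above 0 in 1. It lay below 0 in 9.98% of the 5992 other genes and in 13.5% of the protein-coding ones. In bulk RNA, fewer cells with histone mRNA and less histone mRNA per cell cannot be told apart.

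**Figure D1:**
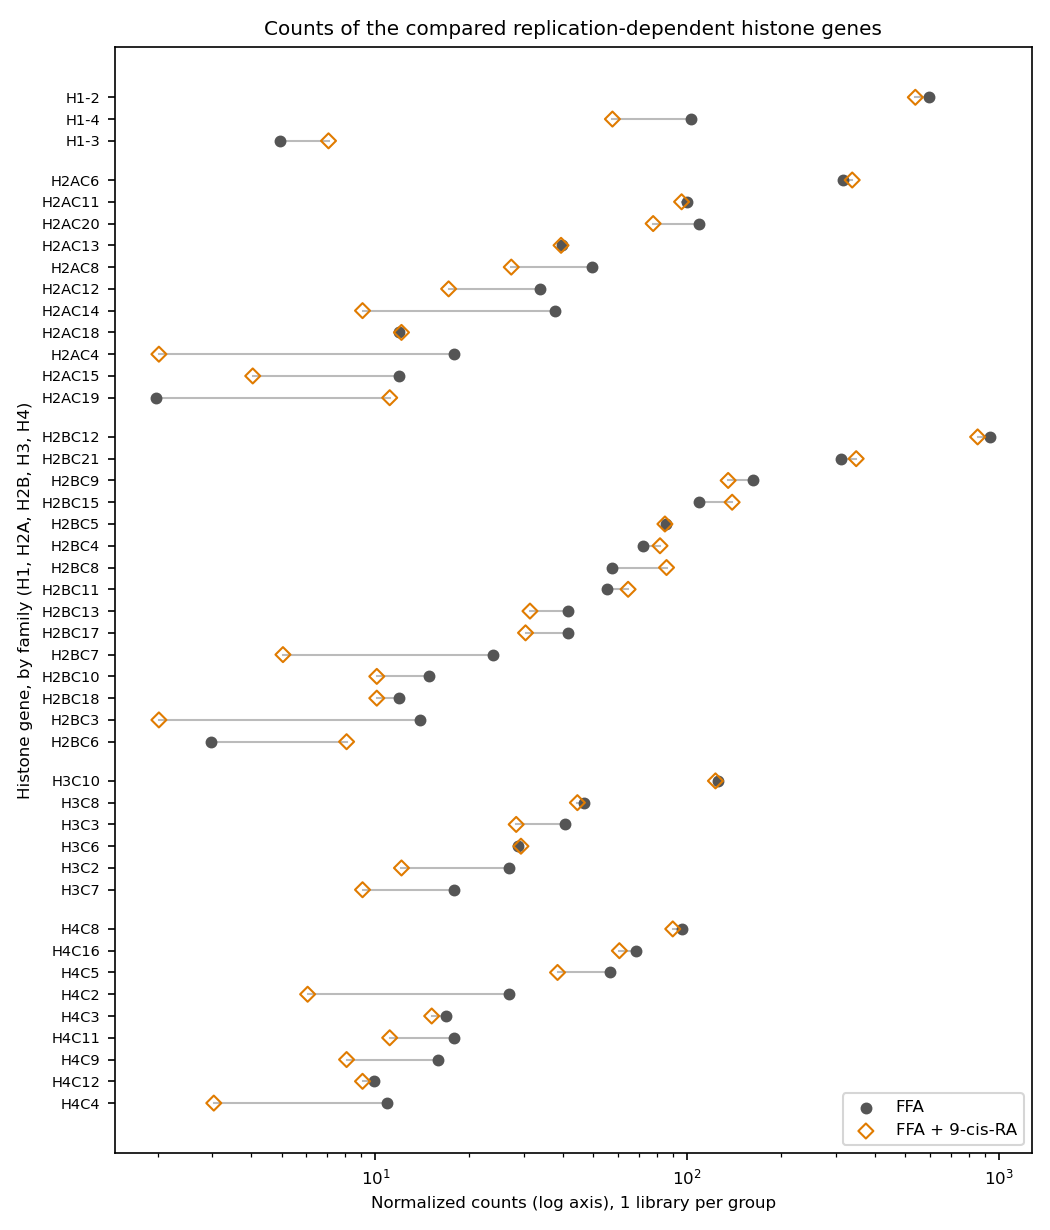
Normalized counts (log axis) of the 44 compared histone genes in both libraries, grouped by family and ordered by counts over both libraries, with filled circles for FFA and open diamonds for FFA + 9-cis-RA. The symbols nearly coincide for well-counted genes such as H2AC6 and H3C10, and the widest gaps, as in H2AC4 and H2BC3, belong to genes with fewer than 20 counts in each library.

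The counts were concentrated in few genes. H2BC12 alone held 23.5% of the counts of all members over both libraries, H1-2 held 14.9%, H2BC21 8.63% and H2AC6 8.56%. These 4 genes thus took 55.6% of the histone counts, and the 25 members with the most counts took 93.6%. Per kilobase of gene model, H2BC12 stood at 2462 and 2242 normalized counts, H1-2 at 932 and 840, H2AC20 at 279 and 199, and H2AC6 at 189 and 203. The models of H2BC12, H1-2 and H2AC20 hold the coding part alone, while that of H2AC6 holds 1275 bases beyond it. Values per kilobase are therefore not comparable between compact and extended models. Members outside these 25 are named below after their values were seen.

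Linker histones were represented by 3 of 6 genes. H1-2 (ENSG00000187837, chr6:26055787-26056428, minus strand, a single exon) had 604 counts in FFA and 534 in FFA + 9-cis-RA (-0.15, interval -0.32 to 0.020). H1-4 (ENSG00000168298, chr6:26156354-26157107, plus strand) had 104 and 57 counts, a difference of -0.83 (-1.33 to -0.36). The intervals of H1-2 and H1-4 did not overlap. H1-3 had 5 and 7 counts, and H1-1, H1-5 and the testis gene H1-6 had none. Summed, the H1 genes had 713 and 598 counts (-0.23, -0.39 to -0.067).

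The H2A genes, which pair with H2B in the nucleosome, were split. H2AC6 (ENSG00000180573, chr6:26124145-26139116) had 319 and 335 counts and H2AC11 had 101 and 95, with log2 fold changes of 0.098 and -0.060 and intervals that held 0. H2AC13 had 40 and 39 counts. These 3 genes were level in both libraries within counting error.
The remaining named H2A genes were lower with 9-cis-RA. H2AC20 (ENSG00000184260, chr1:149886975-149887364) had 110 and 77 counts (-0.48, -0.93 to -0.054). H2AC8 had 50 and 27 (-0.84, -1.59 to -0.16), and H2AC12 had 34 and 17 (-0.93, -1.90 to -0.092). Of the less counted genes, H2AC14 had 38 and 9 counts (-1.94, -3.28 to -0.98) and H2AC4 had 18 and 2 (-2.64, -6.29 to -1.08). H2AC19 went the other way with 2 and 11 counts (2.02, 0.29 to 5.70), but it shares 97.1% of its 50-base windows with H2AC18, which had 12 counts in each library, and fragments that match both genes were not counted. The same limit holds for H2AC14, which shares 83.7% of its windows with H2AC13, and for H2AC13, which shares 62.3% with H2AC14. The H2A sum was 744 and 628 counts (-0.22, -0.37 to -0.062), with a median of -0.48 over 11 compared genes, 8 of them lower.

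H2B was the family with the most counts, 1967 in FFA and 1875 in FFA + 9-cis-RA. This ratio (-0.041, -0.13 to 0.051) was not distinguishable from no difference, and it turned slightly positive, from 32.3 to 32.5 CPM (counts scaled to library totals). The median of its 15 compared genes was -0.13, with 9 lower and 6 higher, and it turned to 0.078 when only genes with at least 50 counts were kept. H2BC12 (ENSG00000197903, chr6:27146418-27146798) had 947 and 846 counts, and its value of -0.13 had an interval that just reached 0 (-0.27 to 0.00022). Of its windows 74.1% recur in transcripts of other genes, 61.4% in H2BFS alone.
H2BC21 (ENSG00000184678, chr1:149884459-149886652) had 314 and 345 counts (0.16, -0.061 to 0.39), H2BC9 had 164 and 134 (-0.26, -0.60 to 0.074), and H2BC15 had 110 and 138 (0.35, -0.017 to 0.73). H2BC8 (ENSG00000273802, chr6:26215159-26216692) had 58 and 85 counts and was the only named member with an interval above 0 (0.57, 0.081 to 1.09). Other named H2B genes were close to level or within counting error: 86 and 84 counts for H2BC5, 73 and 81 for H2BC4, 56 and 64 for H2BC11, 42 and 31 for H2BC13, and 42 and 30 for H2BC17. The lowest H2B genes were poorly counted. H2BC7 had 24 and 5 counts (-2.03, -3.98 to -0.82) and H2BC3 had 14 and 2 (-2.30, -5.96 to -0.66), while H2BC6, with 3 and 8, was at 1.19 with an interval of -0.62 to 3.99.

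The H3 genes encode the canonical H3 whose tail carries many of the known chromatin marks. H3C10 (ENSG00000278828, chr6:27810064-27811300) had 127 and 122 counts, H3C8 had 47 and 44, and H3C6 had 29 in each library. All 3 were level. H3C3 had 41 and 28 counts (-0.51, -1.27 to 0.21), and H3C2 had 27 and 12 (-1.08, -2.26 to -0.11). The family sum was 296 and 249 counts (-0.22, -0.47 to 0.026).

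In the H4 family all 9 compared genes had a log2 fold change below 0, the only family of which this held. H4C8 (ENSG00000158406, chr6:26277609-26285638) had 97 and 89 counts, H4C16 (ENSG00000197837, chr12:14767999-14771131) had 69 and 60, and H4C5 had 57 and 38 (-0.55, -1.19 to 0.060). Each of these 3 intervals held 0. H4C2 had 27 and 6 counts (-1.97, -3.71 to -0.84) and was the only H4 gene with an interval below 0. The H4 sum was 325 and 242 counts, 75.9% of the FFA level (-0.40, -0.64 to -0.15), and the median was -0.55.

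By position, the HIST1 cluster had 3508 and 3069 counts (-0.17, -0.24 to -0.095) and HIST2 had 468 and 463 (0.012, -0.18 to 0.20). The HIST3 genes, H2AC25 and H2BC26, had no count. HIST2 held 5 compared genes, H2BC21 and H2AC20 foremost, so its sum rests on few of them.

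**Figure D2:**
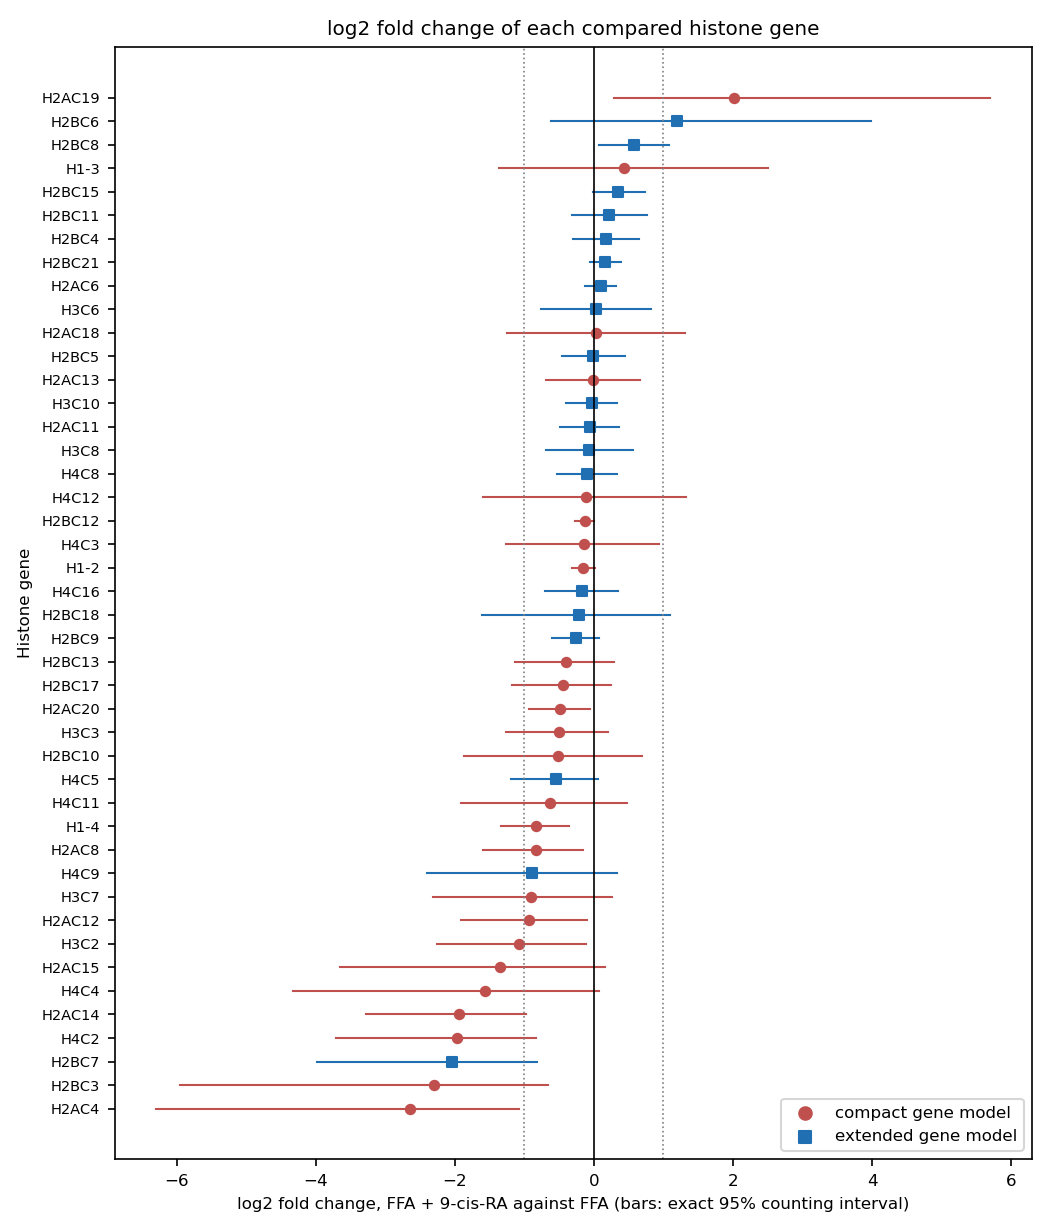
log2 fold change of each of the 44 compared histone genes, ordered by size, with exact 95% counting intervals as bars. Circles are genes with a compact model and squares genes with an extended model, and dotted lines mark -1 and 1. Of the 10 intervals below 0, 9 belong to compact models, and the squares gather near 0.

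The difference ran with the gene model. The 43 compact members had 2278 counts in FFA and 1812 in FFA + 9-cis-RA, 81.1% of the FFA level (log2 ratio -0.30, -0.39 to -0.21). The 26 extended members had 1767 and 1780 counts, or 102.7% (0.038, -0.058 to 0.13). The counting intervals of these sums did not overlap. Among members with 10 to 99 counts alone, the intervals of the compact and extended sums did overlap (-0.93 to -0.51 and -0.70 to -0.055). Of the 25 compact genes compared, 22 were lower, with a median of -0.52. An interval below 0 was found in 9 (36.0%, beside 25.7% of all compared genes), and 7 were below -1 (28.0%, beside 4.9%). Of the 21 compact genes with 10 to 99 counts, 7 had an interval below 0 and 7 were below -1 (33.3% each). The shares of other genes with as many counts were 9.98% and 12.3%. Of the 19 extended genes, 11 were lower and 8 higher, with a median of -0.030, and 1, H2BC7, was below -1. The compact median stayed between -0.40 and -0.73 under every scaling, pseudocount, count minimum and trend correction tried, whereas the extended median ranged from -0.030 to 0.064 and so had no fixed sign.

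The same order was present in the 4 families that hold both kinds. Compact H2A genes summed to 62.3% of their FFA level and extended H2A genes to 104.4%. For H2B the values were 88.0% and 108.1%, for H3 57.1% and 98.5%, and for H4 54.0% and 83.4%. The counting intervals of compact and extended sums did not overlap in H2A and H2B. They overlapped in H3 (log2 ratio -1.33 to -0.30 compact, -0.31 to 0.27 extended) and in H4 (-1.45 to -0.34 and -0.54 to 0.015). All 6 H1 genes are compact. Without H2BC12 and H1-2, which carry most of their counts, the compact members fell from 727 to 432 counts, 60.6% of the FFA level (-0.72, -0.90 to -0.55). Without the members that share over 50% of their 50-base windows with another gene, the compact sum was 1206 and 873 counts (-0.44, -0.57 to -0.31) and the extended sum 1762 and 1774.

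**Figure D3:**
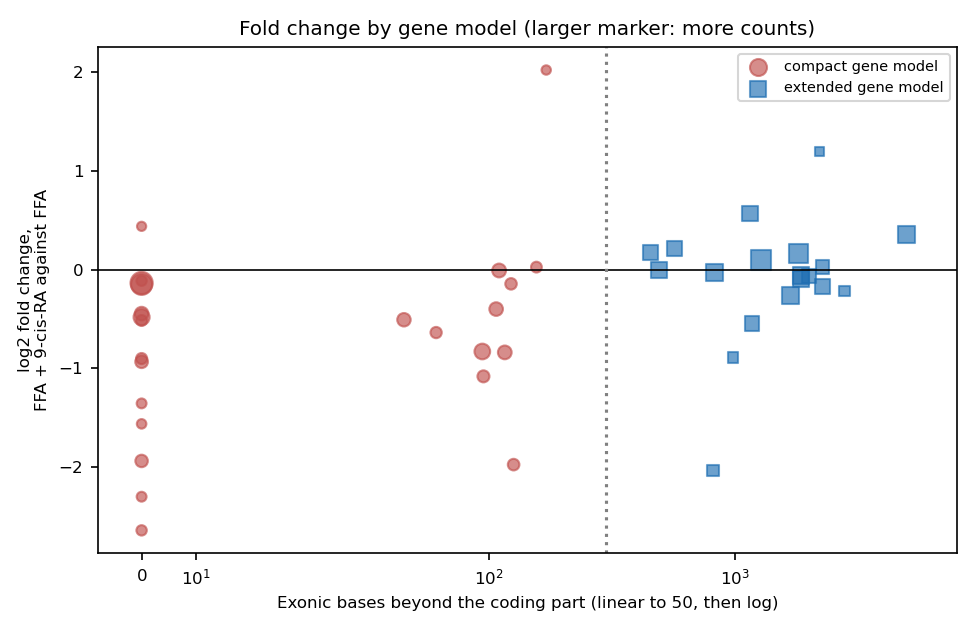
log2 fold change of the 44 compared members against the exonic bases that their gene model holds beyond the coding part (linear to 50, then log), with larger symbols for more counts. Most compact members (circles, left of the dotted line at 300 bases) lie below 0, down to -2.64, and 16 of the 19 extended members (squares) lie between -0.55 and 0.57.

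Several measures ran alongside this split. Compact members had fewer counts: 21 of the 25 compared had 10 to 99 counts, with 493 and 294 in sum (-0.72, -0.93 to -0.51), while the 7 extended members in that range had 188 and 142 (-0.38, -0.70 to -0.055). The 27 other compared protein-coding genes with a model under 600 bases had a median of -0.078. Of these, 4 (14.8%) were below -1 and 9 (33.3%) had an interval below 0, beside 4.9% and 25.7% of all compared genes. They had 10 to 60791 counts over both libraries, so these shares are not matched for counts. Of 27 RNAs listed as lacking a poly(A) tail or mostly lacking one, 9 were compared and 8 were lower with 9-cis-RA, with a median of -1.63, 7 intervals below 0 (25.7% of all compared genes) and a summed change from 1705 to 829 counts (-1.01, -1.13 to -0.89). RN7SL1, the RNA of the signal recognition particle, had 1197 and 630 counts (-0.90), and SNORD3A, the U3 snoRNA, had 315 and 132 (-1.22). In this list 11 RNAs had no count, among them RN7SK and RMRP (named after their values were seen), both wholly overlapped by another entry on the same strand. The part of RNA without a poly(A) tail in the histone values was not tested.

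Divergent neighbours did not always move together. With gene models that do not overlap, 12 divergent pairs were found, with start sites on opposite strands and 218 to 356 bases between the models. Of these, 11 were an H2A and an H2B gene. Both partners were compared in 6 pairs, and 3 of these had the same sign. H2BC8 and H2AC8 lay on opposite sides of 0 with intervals that held no 0, at 0.57 and -0.84. H2BC21 and H2AC20 stood at 0.16 and -0.48, and H2BC12 and H2AC12 at -0.13 and -0.93. H2BC4 and H2AC6, both extended, were level at 0.18 and 0.098. H2BC11 and H2AC11, also both extended, stood at 0.22 and -0.060, and H2BC13 and H2AC13, both compact, at -0.40 and -0.0087. In each of the first 3 of these pairs the partner with the lower value was compact, although H2BC12 is compact as well. H2AC15 (compact) and H2BC15 (extended), at -1.35 and 0.35 with intervals that held 0, were not among the pairs because the spans of their models overlap.

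Promoters were compared with the families because partners of a pair share one stretch of DNA. The 250 bases before a start site are shown for 1 member per family, from RefSeq on GRCh38.p14, with the matched motifs on either strand in capitals. H2AC8 is shown for both H2A and H2B, since its stretch, read on the other strand, holds the motifs of H2BC8. The start of H1-2 lies at the end of chr6:26056471-26056720 (minus strand), that of H2AC8 at the end of chr6:26216671-26216920 (plus), that of H3C10 at the end of chr6:27809801-27810050 (plus) and that of H4C16 at the end of chr12:14771132-14771381 (minus), each read in the direction of its gene.
H1-2: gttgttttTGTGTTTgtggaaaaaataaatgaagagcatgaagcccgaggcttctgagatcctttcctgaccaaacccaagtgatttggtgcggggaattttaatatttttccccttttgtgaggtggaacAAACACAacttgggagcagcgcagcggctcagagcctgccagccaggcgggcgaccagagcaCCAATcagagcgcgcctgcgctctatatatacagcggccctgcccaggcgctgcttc
H2AC8: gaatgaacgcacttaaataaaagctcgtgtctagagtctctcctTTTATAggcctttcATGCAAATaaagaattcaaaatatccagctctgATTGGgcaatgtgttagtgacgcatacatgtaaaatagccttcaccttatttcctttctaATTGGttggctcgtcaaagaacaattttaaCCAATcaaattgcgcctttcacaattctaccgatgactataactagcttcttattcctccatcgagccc
H3C10: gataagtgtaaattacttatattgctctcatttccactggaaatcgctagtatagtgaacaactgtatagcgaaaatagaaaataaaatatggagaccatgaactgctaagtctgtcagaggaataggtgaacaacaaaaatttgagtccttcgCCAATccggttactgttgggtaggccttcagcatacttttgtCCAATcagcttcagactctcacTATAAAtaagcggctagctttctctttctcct
H4C16: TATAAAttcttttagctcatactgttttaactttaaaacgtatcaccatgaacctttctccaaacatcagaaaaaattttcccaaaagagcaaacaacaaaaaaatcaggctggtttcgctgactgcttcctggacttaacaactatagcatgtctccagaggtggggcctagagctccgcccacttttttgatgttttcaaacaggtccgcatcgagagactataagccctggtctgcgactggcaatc

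Motifs differed between some of the families. In windows from 250 bases before to 50 after the start, available for 64 of the 69 members, the octamer ATTTGCAT stood in 11 of 16 H2A and 14 of 18 H2B genes, in 1 of 11 H3 genes and in no H1 or H4 gene, against 2.21% of 19067 genes. The H1 box AAACACA stood in all 6 H1 genes and in 6.12% of all genes. CCAAT was in every H1, H2A, H2B and H3 gene but in 3 of 13 H4 genes (41.2% of all genes), and TATAAA in 67.2% of members (12.5% of all genes). E2F-type sites (TTTCGCGC, TTTGGCGC or TTTCCCGC) were in 20.3% of members and 4.15% of all genes. Windows of divergent partners overlap, so their matches are often the same letters.
The core motif of retinoid receptor sites, AGGTCA, was in 14.1% of members, beside 15.6% of all genes. No member held a direct repeat of it spaced by 1, 2 or 5 bases. These repeats stood in only 5, 1 and 1 of the 19067 genes, so their absence from 64 members is uninformative. By gene model, the octamer stood in 16 of 39 compact and 10 of 25 extended members, TATAAA in 30 and 13, CCAAT in 34 and 20, and E2F-type sites in 10 and 3. A match describes these letters only.

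**Figure D4:**
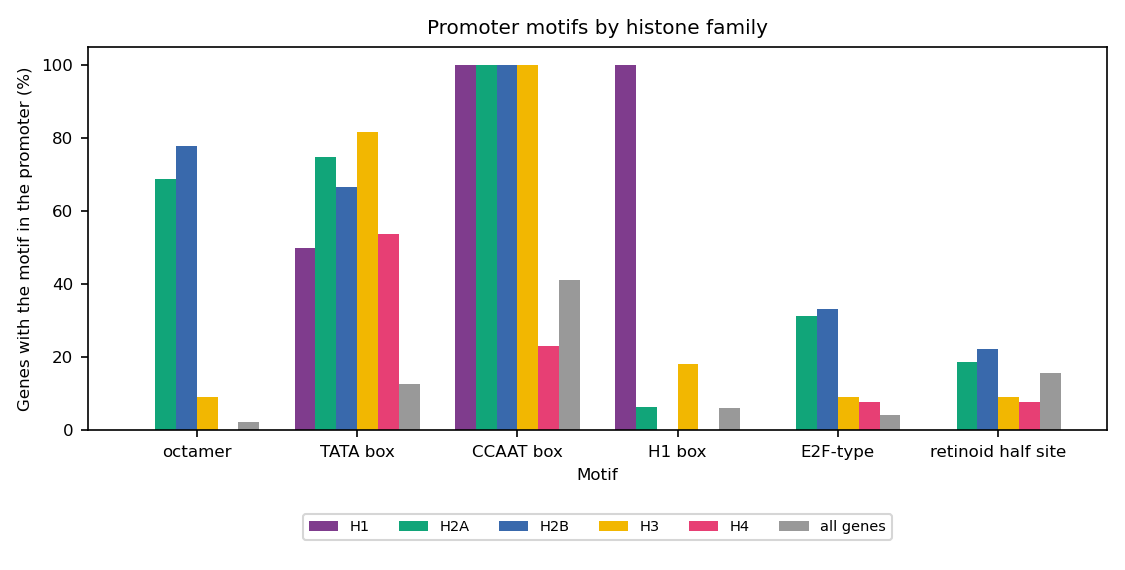
Share of genes (percent) with each motif in the promoter window, as bars by histone family with all genes in grey. The octamer stands out in H2A and H2B, the H1 box in H1, and the CCAAT box in every family but H4. The retinoid receptor motif ranges from 0% in H1 to 22.2% in H2B, beside 15.6% in all genes.

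Among the members without a count, 5 of the 18 are overlapped by another gene on the same strand, and fragments within an overlap were not assigned. Exons of the same longer gene entry cover 100% of the counted bases of H3C4 and 98.0% of those of H2AC7. H3C12 and H2AC17 overlap each other over 44.6% and 88.0% of their counted bases, while H2BC15 covers only 1.02% of H2AC16. The 13 without any such overlap are H1-1, H1-5, H1-6, H2AC1, H2AC25, H2BC1, H2BC26, H3C1, H3C11, H4C1, H4C6, H4C7 and H4C13. Their level was at most 3 counts per library, the limit that an observed 0 sets, which is 0.0493 CPM in FFA and 0.0520 CPM in FFA + 9-cis-RA. Nearly identical copies are affected too: H3C14 and H3C15 share all their windows with each other, all windows of H4C12 recur in H4C11 and all of H4C14 in H4C15, and their counts are uncertain.

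Replication-independent and variant histones, most of them with ordinary poly(A) tails, were better counted. Of 16 such genes 12 were compared, with a median of 0.049, 5 intervals above 0 and 5 below, where 22.5% and 25.7% of all compared genes had such intervals. The 12 had 388 to 94075 counts over both libraries, so these shares are not matched for counts.
The macroH2A pair differed in sign, with MACROH2A1 at 0.22 (21144 and 24193 counts) and MACROH2A2 at -0.45 (2744 and 1971). The H2A.Z genes had 36718 and 36310 counts for H2AZ1 (0.012) and 12169 and 13352 for H2AZ2 (0.16). The H3.3 genes had 5864 and 5139 for H3-3A (-0.16) and 26583 and 28051 for H3-3B (0.11), and H3-5 had 190 and 198 (0.087). CENPA, the centromeric H3, had 3179 and 3460 counts (0.15), the damage-responsive H2AX 9723 and 9082 (-0.071), H1-10 7175 and 6668 (-0.078), and H2AJ 1265 and 1115 (-0.15). None of the 12 passed 1 in either direction.

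Factors that make and destroy histone mRNA differed little. They had 1716 to 33704 counts over both libraries, so the shares of all compared genes given here are not matched for counts. All 35 genes of the list were compared, none passed 1 in either direction, 13 intervals lay above 0 and 9 below (22.5% and 25.7% of all compared genes), and the median was 0.027, which turned slightly negative when a trend on gene length was removed (-0.021). CCNE2, a cyclin that drives NPAT through CDK2, had 755 and 961 counts (0.38), and ERI1, an exonuclease that trims the stem-loop end, had 2324 and 2771 (0.28). LSM4, a subunit of the decay complex, had 9358 and 8003 (-0.20), and TUT7, which adds uridines to histone mRNA ends, had 1961 and 1687 (-0.19). SLBP, named after its value was seen, had 5031 and 4561 counts (-0.11), and so named NPAT, the transcription regulator of these clusters, had 951 and 1132 (0.28).

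Histone chaperones were level as a group, with 22 of 22 compared, a median of 0.0011, 9 intervals above 0 and 8 below, beside 22.5% and 25.7% of all compared genes. The median turned slightly negative without a length or expression trend (-0.013 and -0.0063). The 22 genes had 128 to 40900 counts over both libraries, so the shares of all compared genes are not matched for counts. CDAN1 (0.29) and DNAJC9 (0.20), a co-chaperone of H3 and H4, were highest. IPO4, an importer of H3 and H4, was lowest at -0.42 on 74 and 54 counts, with an interval that held 0, followed by TONSL at -0.36 on 5234 and 4011. S phase genes were lower by small amounts. Of 28 genes 19 had an interval below 0 and 2 above, where 25.7% and 22.5% of all compared genes did, with a median of -0.094. The 28 genes had 2814 to 62535 counts over both libraries, so even small differences could have intervals without 0. The shares of all compared genes are not matched for this. GINS2 had 3516 and 2804 counts (-0.30) and MCM3 had 15010 and 12304 (-0.26), both parts of the replicative helicase, while TOP2A (0.14) and RRM2 (0.069) were highest. None of the 28 passed 1 in either direction.

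**Figure D5:**
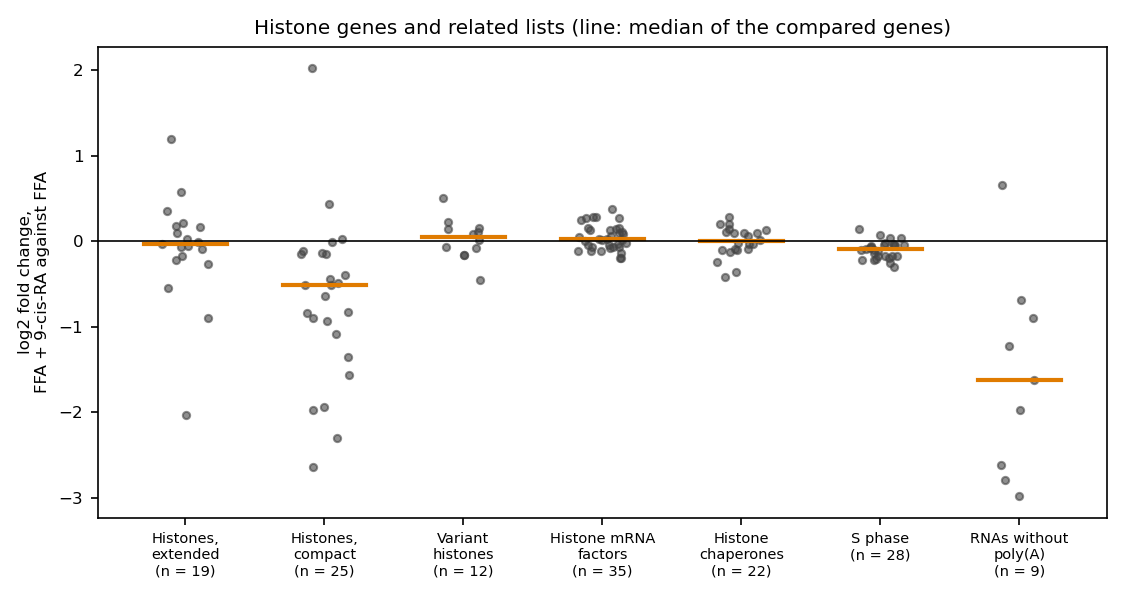
log2 fold change of every compared gene of each list, with an orange line at the list's median. Extended histone genes, variant histones, histone mRNA factors, chaperones and S phase genes centre near 0, compact histone genes centre at -0.52, and RNAs without a poly(A) tail at -1.63.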

How the data were processed

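RNA of 2 HepG2 libraries, 1 per group, was sequenced after capture by oligo(dT) and a stranded library preparation. The authors deposited raw counts per gene, without normalization, obtained by featureCounts version 2.0.1, run on pairs whose ends had both mapped and with strand setting 2. Fragments that matched several places or several genes were left out, which lowers near-identical and overlapping histone genes. The aligner and annotation release are not given in the sources used here. Gene positions matched GRCh38.

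Symbols came from identifiers for 67 members and from RefSeq synonyms for H2AC18 and H2AC19. The identifiers of 67 members are in GENCODE v29, and 66 members have the same exons there. Counts were divided by DESeq2 size factors (version 1.42.0, R 4.3.3). TMM factors came from edgeR 4.0.16, and intervals, trends and plots from scipy 1.17.1, statsmodels 0.14.6, matplotlib 3.10.9, numpy 2.4.6 and pandas 2.3.3 under Python 3.11.15. The pseudocount was 1, the minimum 10 counts over both libraries and the limit 1 on the log2 scale. Totals of 60821539 and 57669670 counts set the precision, so a floor of 3 counts is 0.0493 and 0.0520 CPM. Intervals and floors cover counting error only, since PCR copies are not independent molecules. No model could be fitted to 1 library per group, and no p-value is given. The steps were tested on simulated data.

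The members and lists were chosen with earlier results of these data known. Named were the 25 members with the most counts, variant histones with at least 100 counts, the 2 highest and 2 lowest genes of other lists with at least 100 counts, and 3 retinoid targets. Of these, 1 gene is not reported here. Only RN7SL1 and SNORD3A reached 100 counts among the RNAs without a poly(A) tail. Alternatives were other scalings, pseudocounts of 0.1 and 5, minimums of 1 and 50 counts, removal of trends (loess, span 0.3) and subsets of members.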

Additional observations from a re-analysis of the deposited data

How the results depend on the processing

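Medians of the 5 families kept their direction under 2 other scalings (TMM, total counts), pseudocounts of 0.1 and 5, minimums of 1 and 50 counts, and without trends on length or expression, except that the H2B median was 0.078 with the minimum of 50. The summed ratio of all members, computed for the scalings and subsets, kept its direction under both scalings. Without the length trend, the medians of the histone mRNA factors (-0.021) and chaperones (-0.013) turned negative, as did that of the chaperones without the expression trend (-0.0063). The 150 values of named members under the scalings, pseudocounts and trend corrections stayed within their counting intervals, with 14 of the other sign in 5 members that were close to 0 (H2BC5, H2AC11, H2AC13, H3C8 and H3C10). With a pseudocount of 5, 1 member was above 1 and 5 below -1, and 341 and 594 of all genes. Without a minimum, 3771 of all genes were above 1 and 2493 below -1. With a minimum of 50 counts, 153 and 361 of all genes and 0 and 0 members passed, with 1 member interval above 0 and 4 below, since every member past 1 had fewer counts. The median of the variant histones was 0.098 with total counts and 0.091 without the expression trend. On chromosome 6 alone, 1 member was above 1 and 1 interval above 0. Chosen after seeing the data, compact models alone gave 1 member above 1, 1 interval above 0 and a summed ratio of -0.30. Extended models alone gave 1 above 1, 1 below -1, 1 interval above 0, 1 below and a summed ratio of 0.038, against the direction of all members. Without members that share most windows, 1 was above 1 and 1 interval above 0. The cause was not tested. No paired analysis was possible because each group has 1 library. Depth limits the members under 100 counts, and leaving out a replicate was not possible.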
